A study of Mus musculus with 6 samples.

Results

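The genes described here are heme oxygenase 1 and a set of detoxifying and antioxidant enzymes that are known targets of the transcription factor NRF2, with Nfe2l2, the gene that encodes NRF2. A gene was included where a row of the deposited table carried its symbol and no other. Of 10 genes listed, 7 had such a row, out of 14988 rows with 1 symbol and 16700 rows in all: Hmox1, Nqo1, Srxn1, Gsta4, Gstm1, Prdx1 and Nfe2l2. Txnrd1 shared its row with 1700028I16Rik, so that row is given beside the others and not counted, and no row was named for Me1 or Osgin1.

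NRF2 is held at low levels in resting cells by KEAP1, which hands it to a ubiquitin ligase. Oxidants and electrophiles block that step, and NRF2 then pairs with a small Maf protein on antioxidant response elements, while the repressor BACH1 can occupy the same elements at Hmox1. ATF4 is known to form dimers with NRF2, and some genes of cystine import and heme breakdown respond to both factors. Since NRF2 is controlled largely through its protein, Nfe2l2 mRNA is not a measure of its activity.

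The samples were C2C12 myotubes, muscle cells formed in culture from a mouse myoblast line. All of them carried an adenovirus that made eGFP together with a FLAG-tagged protein, and RNA was taken 48 hours after infection. The ATF4 group (3 samples) received ATF4-FLAG. The control group (3 samples) received ATF4ΔbZIP-FLAG, a form without the DNA-binding bZIP domain that the labels call transcriptionally inactive, so both groups held virus and Atf4 sequence, and uninfected cells were not analysed here. Each sample has a number from 1 to 3 that occurs in both groups. Nothing in the labels states that samples of a group were grown as separate cultures. The p-values therefore refer to the spread between these samples, and part or all of it may be technical. C2C12 is 1 established line.

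Values are log2 levels from exon arrays, 1 array per sample, and their number limits the precision. All 7 genes lay above the dimmest rows, with a lowest value of 5.37 against a 5th percentile of 3.40 to 3.75 over the arrays. The arrays numbered 3 stood apart in both groups, with interquartile ranges of 1.63 and 1.80 against 2.19 to 2.28 on the other 4. Muscle RNA was present: the 11 measured muscle markers averaged 8.93 to 9.58 on control and 8.65 to 9.19 on ATF4 arrays, whereas 10 macrophage and endothelial markers averaged 4.57 to 5.05 and 4.76 to 5.02. Between these, 12 markers of undifferentiated myoblasts and fibroblasts averaged 6.72 to 6.76 and 6.8 to 6.9. Their control means ran from 4.12 (Lum) to 10.25 (Dcn), with 8.82 and 8.06 for the proliferation genes Mki67 and Top2a. The row for Atf4 itself did not differ detectably (log2 difference -0.04, limma adjusted p = 1). It cannot serve as a check of the labels, because each virus brings in Atf4 sequence.

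RefSeq promoter windows of build GRCm38.p6, from 250 bases before to 50 after a start site, were at hand for 8 of the 10 genes; Hmox1 and Gsta4 had none. They were searched on both strands for the core of the antioxidant response element, TGACNNNGC, where NRF2 is known to bind. It was found for 5 genes, Txnrd1, Prdx1, Nfe2l2, Srxn1 and Me1, and in 14.0% of all 27025 genes with a window (12.4% of 32851 windows). The core of the element bound by ATF4 with C/EBP partners, TGATGNAA, was found for 0 of the 8 and in 4.51% of all genes. The matches that lie before the start site are shown, since these letters are the element named for NRF2; capitals mark the match, and each line reads 5′ to 3′ on the strand of the gene.
Txnrd1: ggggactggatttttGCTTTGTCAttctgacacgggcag
Prdx1: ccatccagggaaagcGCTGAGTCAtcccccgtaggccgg
Nfe2l2: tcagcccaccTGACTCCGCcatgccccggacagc
The Txnrd1 stretch is chr10:82859099-82859137 (plus strand, in 1 of 3 windows), that of Prdx1 is chr4:116685451-116685489 (plus strand) and that of Nfe2l2 is chr2:75704880-75704913 (minus strand). In Txnrd1 and Prdx1 the core reads on the opposite strand of the gene. A match is a description of the letters and not evidence of binding in these cells.

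Of the 7 genes, 1 rose, 0 fell and 6 did not pass (limma, adjusted p below 0.05 over all 16700 rows). The threshold was passed by 0.593% of all rows, 0.569% higher and 0.024% lower in ATF4. At an unadjusted p below 0.05 there were 3 of the 7, and 879 of all 16700 rows (limma). With the sample number as a block 2 rose and 1 fell, where 3.56% of all rows passed, 2.4% higher and 1.16% lower. Unadjusted, the blocked fit gave 4 of the 7, and 2960 of all rows. The gene that rose in both fits was Hmox1. The median change of the 7 was 0.02 on the log2 scale, beside -0.03 over all rows, with 4 higher and 3 lower means. The groups did not overlap for 2 genes, Hmox1 and Nfe2l2, both higher in ATF4, as for 9.12% of all rows (4.5% higher and 4.62% lower). In all 3 numbered pairs ATF4 was above control for 3 genes (17% of all rows) and below it for 1 (24.5% of all rows).

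**Figure D1:**
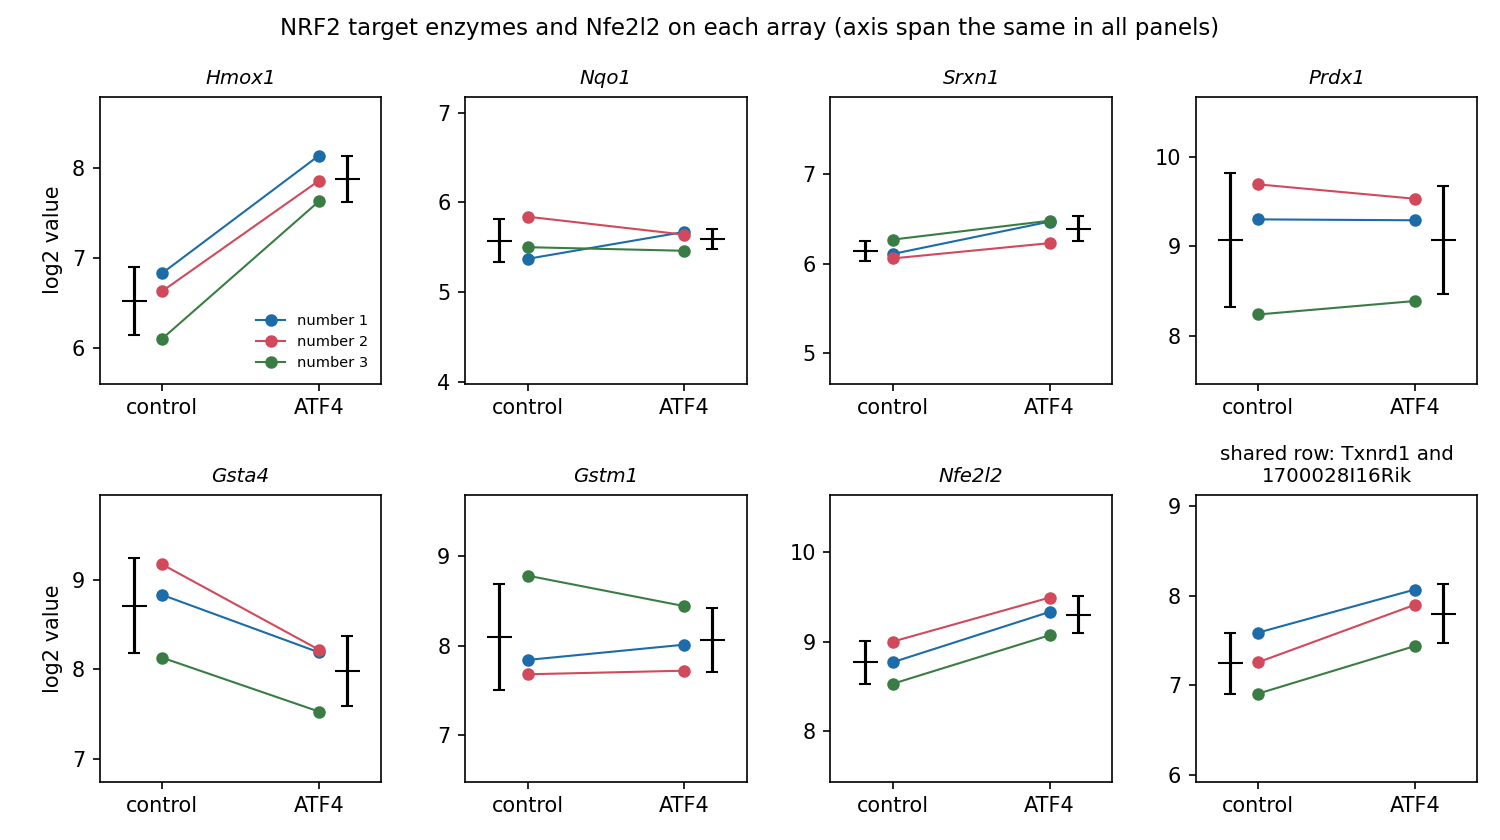
Log2 value of each gene on the control and ATF4 arrays; points of the same sample number share a colour and a line, and black bars are the group mean ± SD (n = 3). Each panel spans the same number of log2 units. The lines of Hmox1, Nfe2l2, Srxn1 and the row shared by Txnrd1 go up in all 3 pairs, those of Gsta4 go down in all 3, and Nqo1, Gstm1 and Prdx1 have no common direction.

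Hmox1 encodes the inducible heme oxygenase, which splits heme into biliverdin, carbon monoxide and iron. Its row (transcript cluster 6977260) read 6.83, 6.63 and 6.10 on control arrays 1 to 3 and 8.14, 7.86 and 7.63 on ATF4 arrays 1 to 3. The lowest ATF4 array stood above the highest control array. The group means were 6.52 ± 0.38 and 7.88 ± 0.26 (SD, n = 3), a 2.56-fold rise, or 1.36 in log2 units (95% interval 0.84 to 1.87; standard error 0.23; limma adjusted p = 0.0303). Within sample numbers the rise was 1.31, 1.23 and 1.53, which means that the pairs were closer to each other than the arrays within a group. With the block the adjusted p was 0.00393 (limma).

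The size of the Hmox1 change was steady over the alternatives tried (1.15 to 1.51), but its call was not. It passed in 11 of 16 alternatives without the block and in 8 of 8 with it. Leaving out ATF4 array 1, ATF4 array 2 or control array 1 gave limma adjusted p of 0.192, 0.106 and 0.0532. Centring each array on its median gave 0.161 and scaling to one interquartile range 0.0706. Without both number 3 arrays it passed (0.0412).

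Markers of cells that are known to carry much heme oxygenase were read beside this rise. Of the 10 macrophage and endothelial markers 0 passed (limma, adjusted p below 0.05; 2 at an unadjusted p below 0.05, and 0 with the block). None of the 10 lay below the 5th percentile of an array. Their median difference was 0, with 4 higher and 6 lower means in ATF4 arrays. The 2 with the smallest p were Ptprc, the CD45 phosphatase of leukocytes, and Cd14, the endotoxin co-receptor of monocytes. Ptprc read 3.94, 4.18 and 4.45 on control and 4.87, 5.16 and 4.78 on ATF4 arrays, without overlap, a log2 difference of 0.75 (limma adjusted p = 0.222, 0.0568 with the block). It passed in 5 of 8 alternatives with the block, which were the 4 rescalings (0.0200 to 0.0458) and the fit without pair 3 (0.0352). Without the block it passed without control array 3 (0.0467) and with array weights (0.00362). Cd14 had a difference of 0.79 (limma adjusted p = 0.514), which was 0.50 on leaving out ATF4 array 2. It passed with array weights (0.0318) and with the block without pair 3 (0.0367). Their part in the Hmox1 result was not tested. The samples were C2C12 myotubes, from 1 myoblast line, so these rows are not a measure of leukocyte or endothelial cell numbers. Between states of that line, a change in the number of cells and a change in RNA per cell cannot be told apart in bulk RNA.

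Nfe2l2 (transcript cluster 6887958), the gene for NRF2, read 8.77, 9.00 and 8.53 on control and 9.33, 9.49 and 9.07 on ATF4 arrays. Every ATF4 array was above every control array, by a narrow margin between ATF4 array 3 and control array 2. The means were 8.77 ± 0.24 and 9.30 ± 0.21 (SD, n = 3), a log2 difference of 0.53 (standard error 0.20, 95% interval 0.09 to 0.97) that did not pass (limma adjusted p = 0.658). The differences within sample numbers were 0.56, 0.49 and 0.54, and with the block the gene rose (limma adjusted p = 0.0293). That call ended without pair 1 (0.134) and without pair 3 (0.0880), and with the block after quantile normalization (0.0521) or scaling (0.0528).

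**Figure D2:**
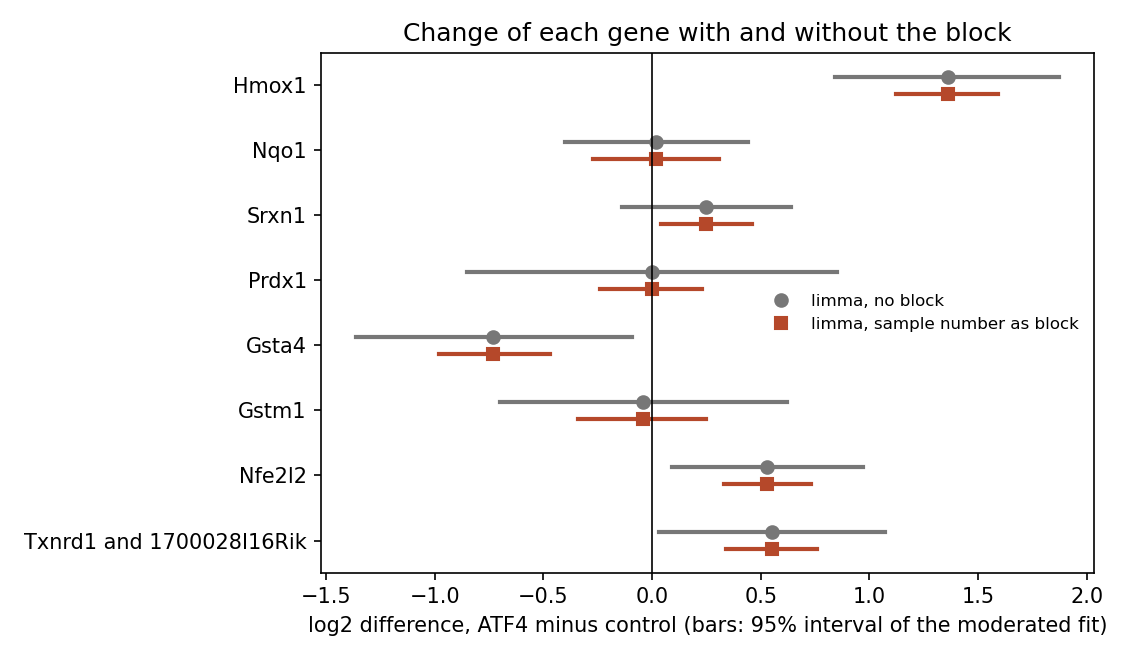
Log2 difference between ATF4 and control arrays with its 95% interval from the limma fit without (grey circles) and with (brown squares) the sample number as a block. Intervals of Hmox1, Gsta4, Nfe2l2 and the row shared by Txnrd1 exclude 0 in both fits, before any adjustment for multiple tests. Those of Nqo1, Gstm1 and Prdx1 span 0 in both, and that of Srxn1 excludes 0 with the block only.

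Nqo1 encodes a quinone reductase that is often used as the reference NRF2 target. Its row (transcript cluster 6985106) read 5.37, 5.84 and 5.50 on control and 5.67, 5.64 and 5.46 on ATF4 arrays. The ATF4 values lay inside the control range. The difference was 0.02 (limma adjusted p = 1; -0.08 without control array 1 to 0.15 without control array 2), with a 95% interval of -0.40 to 0.44, and of -0.27 to 0.31 with the block. A rise of the size of the Hmox1 estimate lies outside both intervals. The mean of this row was at the 42.8th percentile of all rows. Its brightness over background was not known, and a dim row may understate a fold.

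Peroxide removal was represented by Prdx1, a peroxiredoxin, and Srxn1, the sulfiredoxin that restores peroxiredoxins after over-oxidation. Prdx1 (transcript cluster 6916572) read 9.30, 9.69 and 8.24 on control and 9.29, 9.53 and 8.39 on ATF4 arrays. Its sample numbers differed far more than its groups: array 3 was below the mean of arrays 1 and 2 by 1.26 in control and 1.02 in ATF4, where rows in the brightest 10% had medians of -0.46 and -0.27. The group difference was 0.00 (limma adjusted p = 1), with a 95% interval of -0.85 to 0.85, narrowed to -0.24 to 0.23 by the block. It was -0.42 without control array 3 and 0.34 without ATF4 array 3. Srxn1 (transcript cluster 6882264) read 6.11, 6.06 and 6.27 on control and 6.47, 6.23 and 6.48 on ATF4 arrays. It was higher in ATF4 in each pair, by 0.36, 0.17 and 0.22, with overlap between the groups. The difference of 0.25 (95% interval -0.14 to 0.64) did not pass (limma, adjusted p = 1; adjusted p = 0.217 in the blocked fit).

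Thioredoxin reductase 1, the enzyme that keeps thioredoxin reduced, could be read only on the row that Txnrd1 shares with 1700028I16Rik (transcript cluster 6769357). This row read 7.59, 7.26 and 6.91 on control and 8.07, 7.90 and 7.44 on ATF4 arrays, with overlap between the groups. Its difference of 0.55 did not pass (standard error 0.23; limma adjusted p = 0.858) and passed with the block (0.0296), a call that ended on leaving out any of pairs 1, 2 and 3 (0.0677 to 0.0908). The rise in the blocked fit cannot be assigned to 1 gene.

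Of the glutathione transferases, Gsta4 had lower means in ATF4 arrays and Gstm1 means within the spread of its arrays. Gsta4 encodes an alpha-class enzyme known for joining glutathione to hydroxynonenal, a product of lipid peroxidation. Its row (transcript cluster 6990685) read 8.83, 9.17 and 8.13 on control and 8.19, 8.22 and 7.53 on ATF4 arrays, and the groups overlapped through control array 3. The means were 8.71 ± 0.53 and 7.98 ± 0.39 (SD, n = 3), a log2 difference of -0.73 that did not pass (standard error 0.29, 95% interval -1.36 to -0.09; limma adjusted p = 0.729). The differences within sample numbers were -0.63, -0.95 and -0.60, and with the block the gene fell (limma adjusted p = 0.0232). That call ended without pair 3 (0.0745).

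Muscle markers, like Gsta4, had lower means in ATF4 arrays. This held for all 11 markers with a row of their own, with a median difference of -0.30, and for 9738 of all 16700 rows. None passed (limma; 2 at an unadjusted p below 0.05), while 3 fell with the block. The calcium store protein gene Casq1 had -0.85 (limma, adjusted p = 0.468; adjusted p = 0.0194 in the blocked fit; 0.0160 without control array 3 and no block) and the myogenic factor gene Mef2c -0.73 (0.671, and 0.0289 with the block; 0.0479 without control array 3). With the block the Mef2c call ended without pair 1 (0.0733). The fast myosin genes Myh4 and Myh1 share a row that was not counted; it read 8.14, 7.45 and 7.08 on control and 6.75, 5.69 and 4.36 on ATF4 arrays, without overlap. Its difference was -1.96 (standard error 0.50; limma adjusted p = 0.192) and passed with the block (0.0178). Their part in the Gsta4 result was not tested. Of 12 markers of undifferentiated myoblasts and fibroblasts, 1 rose and 0 fell (limma). Their median difference was 0.02, with 7 higher and 5 lower means. The gene that rose was Cd34, a surface protein of progenitor cells, by 1.43 (limma adjusted p = 0.00495, and 0.0519 without ATF4 array 1). The proliferation gene Top2a had -0.47 and did not pass (limma adjusted p = 1). It had -0.30 without control array 2, and passed with the block after cyclic loess (0.0425) or quantile normalization (0.0464).

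Gstm1, a mu-class transferase (transcript cluster 6908078), read 7.84, 7.68 and 8.78 on control and 8.01, 7.72 and 8.44 on ATF4 arrays. Array 3 was above arrays 1 and 2 in both groups, the reverse of Prdx1 and Gsta4. The difference was -0.04 (95% interval -0.70 to 0.62; limma adjusted p = 1), and ranged from -0.25 without control array 2 to 0.30 without control array 3. The mu-class genes are close copies of each other, and array probes may read more than 1 of them, so this value is uncertain for Gstm1 alone.

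Hmox1 was also compared with each of the other genes by their difference on the same array, a quantity that no shift of a whole array can alter. Hmox1 was the gene that rose on these same arrays, and all 6 differences share its values, so they add no separate support. The mean difference was higher in ATF4 arrays for all 6 genes, by 0.83 (against Nfe2l2) to 2.08 (against Gsta4) on the log2 scale. The groups did not overlap in 6 of 6. Against Nqo1 it was 0.59 to 1.46 on control and 2.16 to 2.47 on ATF4 arrays. Each exact two-sided permutation test gave p = 0.1 (0.1 after adjustment over the 6), the smallest that 3 against 3 arrays allow, so no such difference could pass 0.05.

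**Figure D3:**
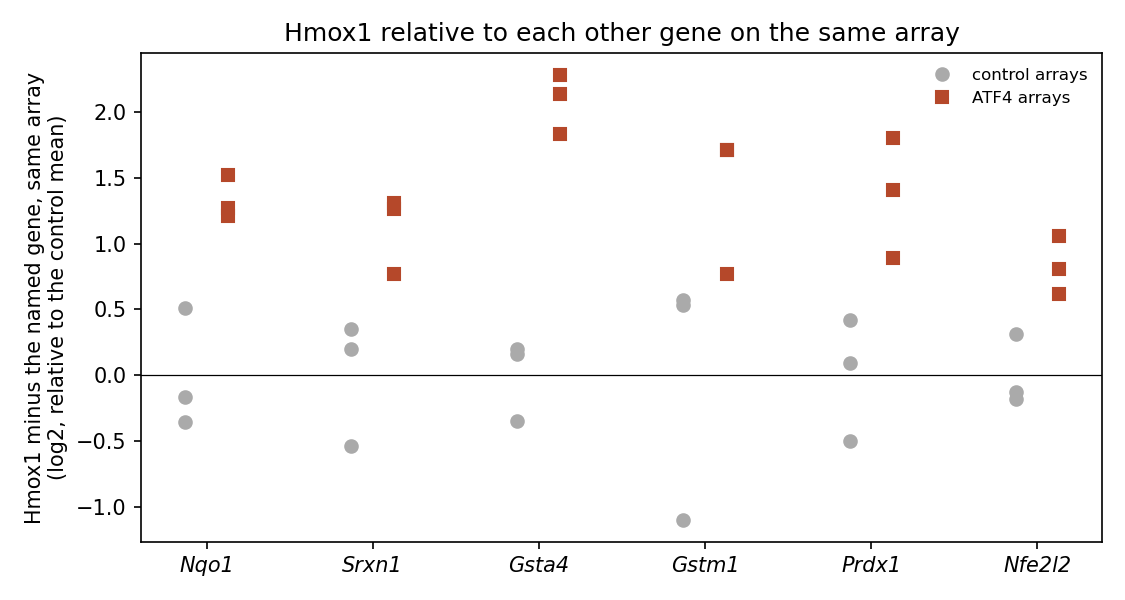
Hmox1 minus the named gene on the same array, in log2 units relative to the mean of the control arrays; circles are control and squares ATF4 arrays (n = 3 each). For each of the 6 genes the ATF4 arrays lie above the control arrays, with mean differences of 0.83 to 2.08. All 6 share the Hmox1 values and are not separate observations.

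Over all 6 arrays, the rows with 1 symbol whose values were most like those of Hmox1 were Cep85, Mff and Lman2l, by Pearson's r of 0.998, 0.998 and 0.997. For Nfe2l2 they were Cep162 (0.997), Klhdc1 (0.996) and Vmn1r230 (0.994). For Gsta4 they were Trit1 (0.998), Pde7a (0.991) and Mtf2 (0.991). For Nqo1 they were Pi15 (0.981), Vmn1r28 (0.971) and Morn5 (0.967). None of the 7 genes stands among these rows. Each is the closest of many rows over 6 arrays that share their scaling, which gives high values readily, and the likeness describes these arrays only.

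The wider network was read from 8 lists of regulators, heme and iron genes and redox enzymes. Of their 103 measured genes 4 rose and 0 fell (limma; 3.88%), and 7 rose and 1 fell with the block (7.77%), where 0.593% and 3.56% of all rows passed. These lists were chosen with earlier results of these data known, so the shares do not test them. The median change of the 103 genes was -0.03, as over all rows. The 4 that rose were Slc7a11, Chac1, Aldh1l2 and Mthfd2, all known as ATF4 targets. Slc7a11 serves cystine import, where some genes respond to both ATF4 and NRF2, and which factor acted was not tested. None of the enzymes of quinone and carbonyl reduction or of glutathione transfer was among the 4.

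Regulators of NRF2 did not pass in either direction, with or without the block. At an unadjusted p below 0.05 there were 0 of the 13, and 5 with the block, beside 2960 of all 16700 rows with the block. Of those 5, 0 passed after adjustment. All 13 listed genes were measured, 0 passed (limma), and the median was 0.03. The 2 with the smallest p were Sqstm1, the autophagy receptor p62 that binds KEAP1, and Nfe2l1, a close relative of Nfe2l2. Sqstm1 read 8.65, 8.61 and 8.61 on control and 9.12, 8.91 and 8.86 on ATF4 arrays, without overlap, a difference of 0.34 (limma, adjusted p = 1; adjusted p = 0.120 in the blocked fit). Nfe2l1 had 0.44 (limma, adjusted p = 1; adjusted p = 0.0508 in the blocked fit). Its difference was 0.28 without control array 3 and 0.29 without ATF4 array 1, and it passed with the block after centring (0.0391). The repressors, chosen for mention after their values were seen, had -0.21 (Keap1) and 0.10 (Bach1), each with a limma adjusted p of 1.

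Around heme oxygenase, 15 of 17 listed heme and iron genes were measured, with 0 past the threshold (limma; 1 at an unadjusted p below 0.05), 1 with the block and a median of -0.02. That gene was Cpox, the coproporphyrinogen oxidase of heme synthesis, which read 6.95, 7.03 and 6.98 on control and 7.90, 7.81 and 7.67 on ATF4 arrays. The groups lay well apart, with a difference of 0.80 (standard error 0.17; limma, adjusted p = 0.0832; adjusted p = 0.0143 in the blocked fit). The call with the block ended without pair 3 (0.0501). The biliverdin reductase gene Blvrb, which acts after heme oxygenase, had -0.31 (limma adjusted p = 1) and -0.20 without control array 3. The constitutive heme oxygenase gene Hmox2 and the ferritin heavy chain gene Fth1, chosen for mention after their values were seen, each had -0.02 (limma adjusted p = 1).

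In the thioredoxin and peroxiredoxin system, 14 of 16 listed genes were measured and 0 passed (limma; 1 at an unadjusted p below 0.05), with 1 rise in the blocked fit. The median was -0.13, and 12 of the 14 had lower means in ATF4 arrays, as had 9738 of all 16700 rows. The sestrin gene Sesn2, a stress-induced inhibitor of mTORC1 signalling, had 1.20 (limma adjusted p = 0.0694, 0.0185 without control array 3, and 0.00451 with the block). Prdx2, the peroxiredoxin most like Prdx1, had -0.33 without overlap between the groups (limma adjusted p = 1).

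**Figure D4:**
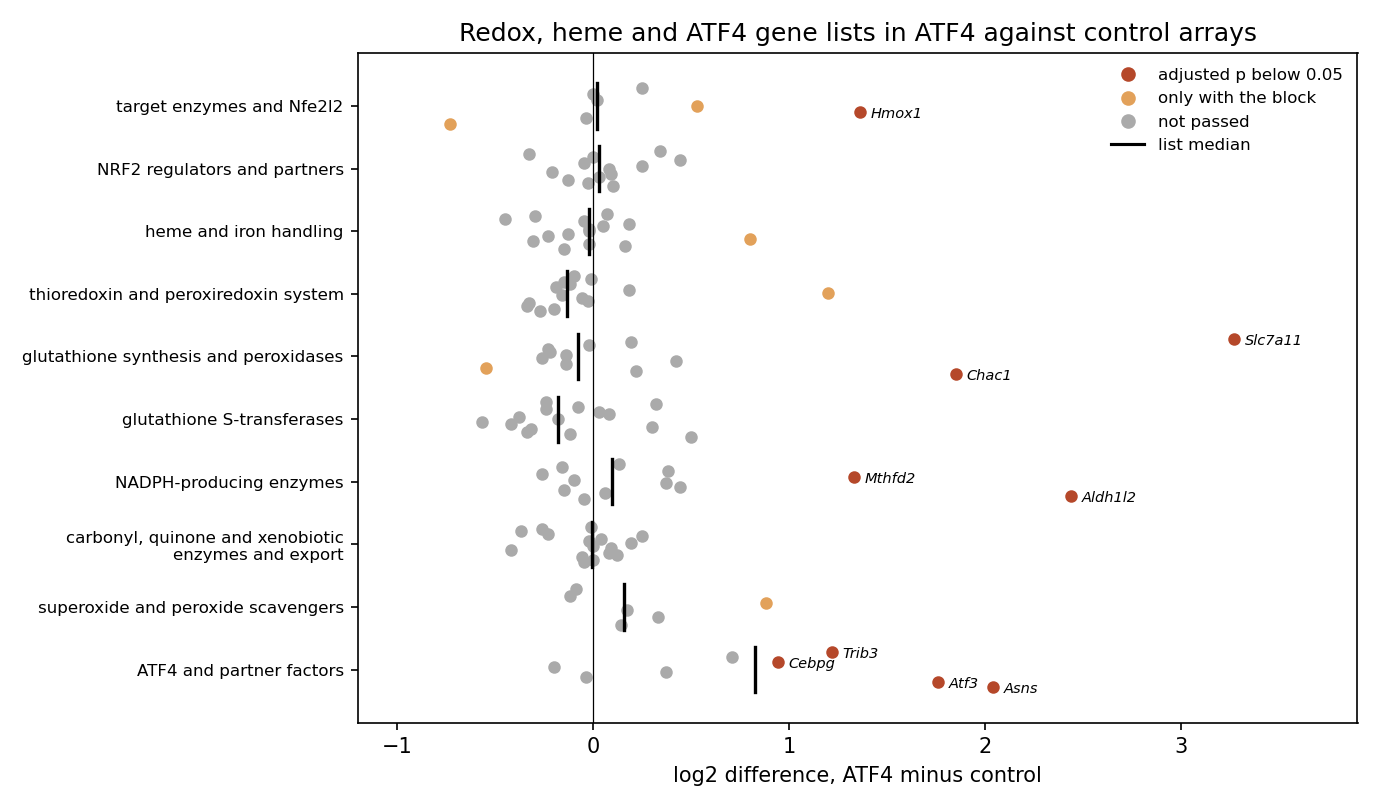
Log2 difference between ATF4 and control arrays for each measured gene of each list; red points passed the limma test (adjusted p below 0.05), orange points passed with the sample number as a block only, grey points in neither, and the black bar is the list median. Outside the ATF4 partner list the medians lie between -0.18 and 0.16, and the 5 named red points are Hmox1, Slc7a11, Chac1, Mthfd2 and Aldh1l2.

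Glutathione genes held the largest rise of the 8 lists. Of 14 listed, 12 were measured and 2 rose, both of which also rose with the block, while 1 fell there; the median was -0.08. The cystine and glutamate exchanger Slc7a11, which brings in the cysteine for glutathione, rose by 3.27 in log2 units (SE 0.21; limma adjusted p = 1e-04). Chac1, which degrades glutathione, rose by 1.85 (0.20; limma adjusted p = 0.00201), a call that ended on scaling to one interquartile range (0.0544). Ggct, a cytosolic enzyme of glutathione breakdown and the gene that fell with the block, had -0.55 (limma, adjusted p = 1; adjusted p = 0.0354 in the blocked fit). Gclm, a subunit of the rate-limiting enzyme of glutathione synthesis, shared a row with Ppia that had 0.58 (limma, adjusted p = 0.487; adjusted p = 0.0354 in the blocked fit) and cannot be assigned to it.

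Of 21 other glutathione transferases listed, 15 were measured and 0 passed (limma; 1 at an unadjusted p below 0.05, and 0 with the block). Their median was -0.18, and 10 of the 15 had lower means in ATF4 arrays, a share near that of all rows (9738 of 16700). Gstm7, of the mu class, had -0.57 (limma adjusted p = 0.616, and 0.0350 with array weights). Gsta3, of the alpha class, had 0.50 (limma adjusted p = 1), and 0.25 without control array 1.

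Enzymes that make NADPH, the reducing power these systems use, included 2 rises among 12 measured of 14 listed, with a median of 0.09. Both are mitochondrial folate enzymes. Aldh1l2 rose by 2.44 (standard error 0.20; limma adjusted p = 0.000248) and Mthfd2 by 1.33 (0.23; limma adjusted p = 0.0303). The call of Mthfd2 ended without ATF4 array 1 (0.192), ATF4 array 2 (0.106) or control array 2 (0.0734), without both number 3 arrays (0.132) and on centring (0.122), and with the block without pair 3 (0.0607).

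Among 22 listed genes of carbonyl, quinone and xenobiotic handling, 16 were measured and 0 passed (limma; 0 also at an unadjusted p below 0.05, and 0 with the block), with a median of -0.01. Nqo2, the relative of Nqo1 that uses another co-substrate, had -0.37, and the aldo-keto reductase gene Akr1b10 had -0.42 (limma adjusted p = 1 for both). Nqo2 had -0.24 without ATF4 array 3. Akr1b10 had -0.66 without control array 1, -0.22 without control array 3 and -0.09 with array weights. Akr1c12 and Akr1c13, further aldo-keto reductases, share rows. The brighter of these read 6.58, 7.22 and 6.28 on control and 7.91, 8.42 and 7.79 on ATF4 arrays, a difference of 1.35 without overlap (limma, adjusted p = 0.0635; adjusted p = 0.00405 in the blocked fit). The other shared row had 0.39 (limma adjusted p = 1). Neither was counted in the list, and both are named after their values were seen.

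Of the 6 measured superoxide and peroxide scavengers, 0 passed (limma; 1 at an unadjusted p below 0.05), and 1 rose with the block. Pon2, a paraoxonase that limits lipid peroxidation, had 0.88 without overlap (limma, adjusted p = 0.228; adjusted p = 0.0102 in the blocked fit). That call ended without pair 3 (0.0517). Mt1, a metallothionein, had 0.33 (limma adjusted p = 1), and 0.04 without control array 3.

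For comparison, 4 of 8 genes listed as ATF4 and partner factors or their direct targets rose and 0 fell. Asns rose by 2.04 (limma adjusted p = 0.00646), Atf3 by 1.76 (0.0133), Trib3 by 1.22 (0.0251) and Cebpg by 0.94 (0.0386). The Hmox1 change of 1.36 lay within the range of these 4, which were set apart by the same threshold that Hmox1 passed. It was above all of the other 4, of which Atf5 had 0.37, Cebpb -0.20 and Atf4 -0.04. Ddit3, the gene for CHOP, had 0.71 and did not pass (limma adjusted p = 0.468). It had 0.46 without control array 3, and passed with the block without pair 2 (0.0287). Without ATF4 array 1 the adjusted p was 0.0889 for Atf3, 0.175 for Trib3 and 0.273 for Cebpg, and without ATF4 array 2 it was 0.0527, 0.121 and 0.187. Without control array 1 it was 0.131 for Trib3 and 0.136 for Cebpg, without control array 2 it was 0.0734 and 0.118, and without ATF4 array 3 it was 0.0691 for Cebpg. Centring ended the calls of Asns (0.0589), Atf3 (0.0987) and Cebpg (0.0876), and scaling those of Atf3 (0.0518) and Cebpg (0.0646).

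**Figure D5:**
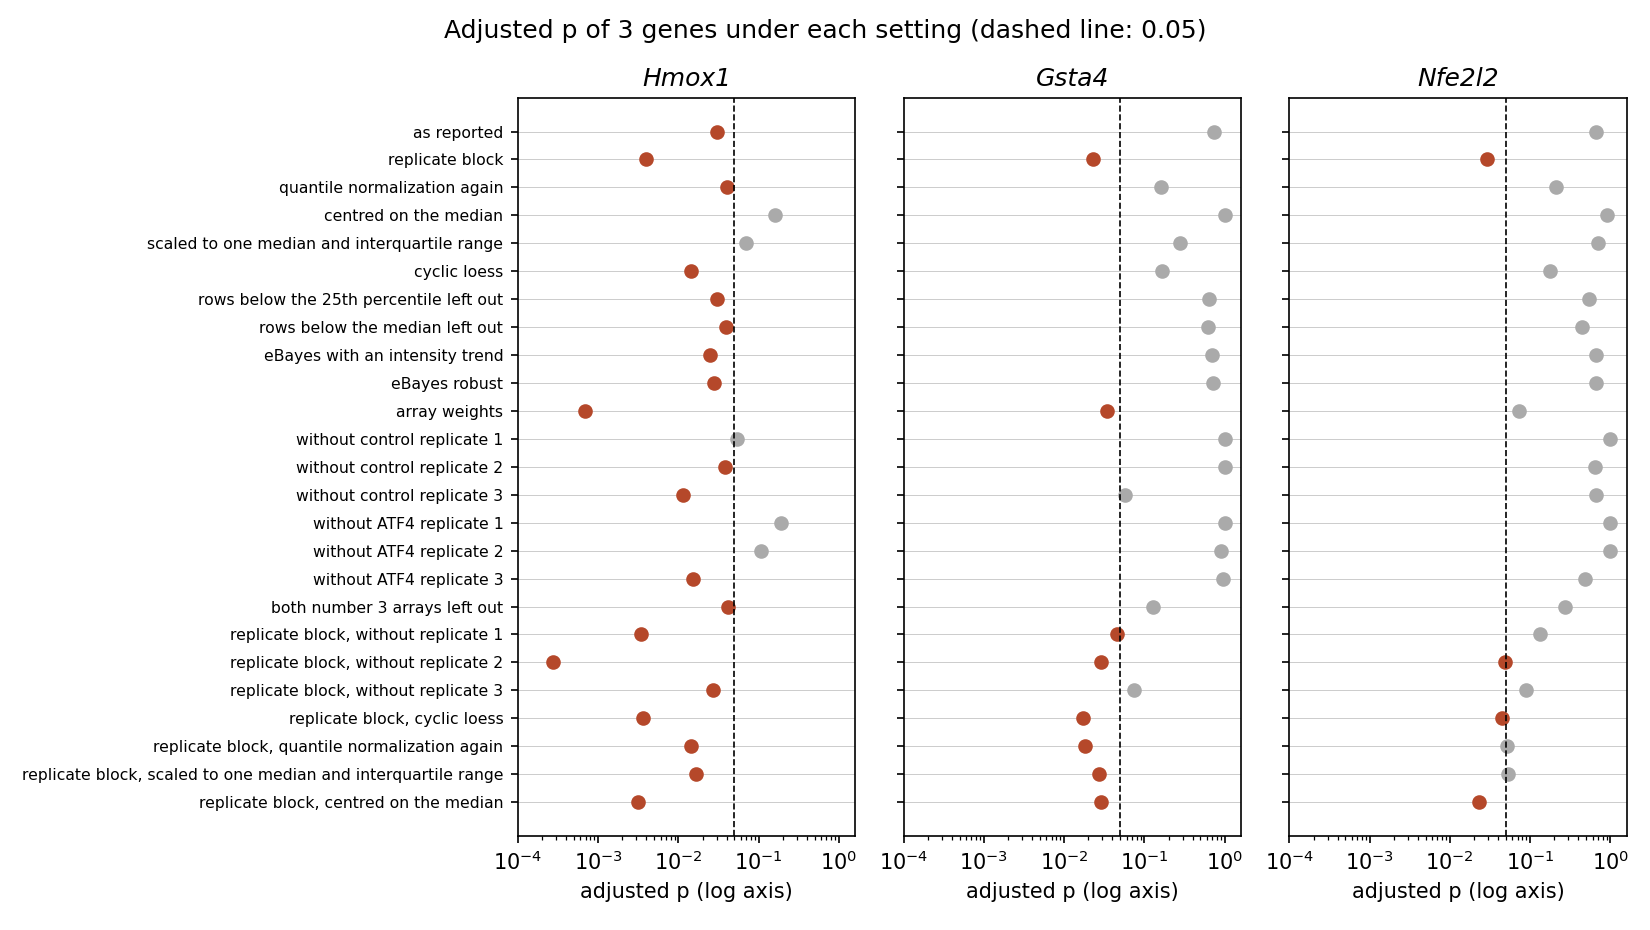
Adjusted p (log axis) of Hmox1, Gsta4 and Nfe2l2 in the reported fit and under 24 alternatives; red points lie below 0.05, the dashed line. Hmox1 passes with the block in 8 of 8 alternatives and without it in 11 of 16; Gsta4 passes in 7 of 8 and 1 of 16, and Nfe2l2 in 4 of 8 and 0 of 16.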

How the data were processed

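The deposited log2 values, 1 per array for each of 16700 transcript clusters, were used as given. Per the submitters' processing notes the authors used GCOS, RMA and mouse build mm9; no version or filter is stated in the labels. The log2 scale is inferred from the range of the values. No detection calls were used. Rows were named from the platform annotation (14988 with 1 symbol, 1018 with several, 694 with none). RefSeq sequences are of GRCm38.p6, and no coordinates were taken across builds.

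Changes are ATF4 minus control from linear models with moderated variances fitted to every row (limma 3.58.1 under R 4.3.3), two-sided and adjusted over the whole table by Benjamini-Hochberg. Standard errors and 95% intervals come from that moderated fit, with 4 residual and 6.30 prior degrees of freedom (2 and 3.77 with the block). Permutation tests used scipy 1.17.1. The fits were tested on simulated data.

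The titles give the sample numbers without saying what they stand for. Across rows, arrays of the same number deviated from their group means with a correlation of 0.578 to 0.782, and arrays of different numbers with -0.666 to 0.221. Each same-number value was over 0.1, so numbers were read as pairs. The calls without the block, which are given first, and the permutation tests leave this pairing out, and the blocked fit takes it in.

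The genes and lists were chosen with earlier results of these data known. By rule, every listed enzyme with its own row was named; from each list, up to 4 genes past the threshold with the largest change or the 2 of smallest p if under 2 passed; Atf4, Ddit3, Asns and Trib3; and the 3 rows most like Hmox1, Nqo1, Nfe2l2 and any listed enzyme that passed with or without the block. Alternatives were the block, 4 rescalings, 2 filters on dim rows, trended or robust eBayes, array weights, arrays or pairs left out and a threshold of 0.01; the block joined with a rescaling was added after seeing the data.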

Additional observations from a re-analysis of the deposited data

How the results depend on the processing

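Signs of the called genes did not turn under any of the 24 alternatives. The count of NRF2 genes past the threshold (1 of 7, limma) was 3 with the replicate block and 2 with array weights. It was 0 after centring, after scaling and at an adjusted p under 0.01 (2, 3 and 3 at an unadjusted p below 0.05). It ranged from 0 to 1 with 1 array left out (0 without control array 1, ATF4 array 1 or ATF4 array 2, with 1, 2 and 2 at an unadjusted p below 0.05), and from 1 to 3 with a pair left out under the block. With the block it was 3 after cyclic loess or centring and 2 after quantile normalization or scaling. The 8 genes called among the 111 of the lists, ATF4 partners included, became 4 after centring, 5 after scaling, 13 with array weights, 13 with block and centring, 4 at an adjusted p under 0.01, 4 to 9 with 1 array left out and 9 to 13 with a pair left out under the block. Of the cell type markers 1 passed, against 4 with the block, 5 with array weights, 0 to 4 with 1 array left out (0 without ATF4 array 1, with 4 without control array 3), 2 to 5 with a pair left out, and 5, 5, 4 and 4 with the block after cyclic loess, quantile normalization, scaling and centring. Over all rows the 99 calls became 594 with the block, 57 after centring, 151 after cyclic loess, 561 with array weights, 157 without both number 3 arrays, 41 at an adjusted p under 0.01, 38 to 243 with 1 array left out, 261 to 630 with a pair left out under the block (261 without pair 3, 354 without pair 1), and 616, 565, 500 and 612 with the block after cyclic loess, quantile normalization, scaling and centring. Among the genes named by the rule, the block alone gave calls for Gsta4, Nfe2l2, Cpox, Sesn2, Pon2, Casq1 and Mef2c. It ended no call among them. Joined with a rescaling or a pair left out, it also gave calls for Ptprc, Cd14, Top2a, Nfe2l1 and Ddit3. The causes were not tested. No listed enzyme had more than 1 row, so the alternative of using every row was not run. Brightness over background was not known, and dim rows may understate a fold.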
